A study of Drosophila melanogaster with 12 samples.

Results

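The mitochondrial ribosomal protein genes are the nuclear genes whose symbol in the array's gene annotation begins with mRpL or mRpS followed by a number. The rule found 68 genes among the 11979 named genes on the array, 43 of them named for the large subunit and 25 for the small subunit, and each had 1 probe. They lay on all the large chromosome arms, with 12 on 2L, 10 on 2R, 17 on 3L, 19 on 3R and 10 on X in the RefSeq gene table of Release 6 plus ISO1 MT. Another 2 probes carried the joint name of mRpL47 and Rlb1 and were left out, since they name no single gene. Their differences between mutant and wildtype cells were 0.19 and -0.13 on the log2 scale (limma adjusted p = 0.788 and 0.717). Genes of the mitochondrial ribosome with other names, such as bonsai, were not members.

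Mitochondria make a few core proteins of the respiratory chain from their own genome, and they do so on a ribosome of their own. The RNAs of that ribosome are mitochondrial, whereas its proteins are encoded in the nucleus, made in the cytosol and imported. Many have a bacterial counterpart and keep its number, while others occur only in mitochondrial ribosomes. Neural stem cells and their progeny can differ in how they make energy.

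The cells were neuroblasts, the neural stem cells of the fly, and ganglion mother cells, their smaller daughters. They came from the ventral nerve cord of stage 11 embryos of Drosophila melanogaster. The mutant group held 6 samples of the genotype pros17/pros17, which lacks normal function of prospero, a transcription factor that drives ganglion mother cells out of self-renewal. The group labelled wildtype held 6 samples of the genotype pros17/TM3-KrGFP, so these embryos also carried pros17 and were heterozygous, with a marked balancer in place of the other chromosome 3. The common reference was RNA of about 30 whole w1118 embryos of stages 10 to 12. Embryos grew at 25 °C, and each sample was 50 to 100 lysed cells whose cDNA was amplified by PCR. In both groups the cells carried Cy3 on replicates 1 to 3 and Cy5 on replicates 4 to 6. Nothing in the labels says whether replicates are different embryos, and p-values then measure only the spread between these samples, which may be technical. For any gene, the loss of prospero and the difference between the mutant and the balancer chromosome cannot be told apart. Genes on chromosome 3 also lie on the chromosomes that differed.

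Each value is a log2 ratio, read as cells over reference. That direction is likely but is not stated: prospero was lower in mutant cells when the ratios were read this way, and all 6 neuroblast genes were above the reference in mutant cells. In wildtype cells, however, 3 of these 6 genes were above the reference and 3 were below it. Prospero averaged -2.99 ± 0.69 in mutant cells and 2.17 ± 0.99 in wildtype cells (SD, n = 6 each), a difference of -5.16 (SE 0.36, limma adjusted p = 5.68e-05). Cell-type markers also differed between the groups. Of the neuroblast genes 4 of 6 rose in the mutant, and the median of the list on an array ran from 1.35 to 2.33 in mutant cells and from -0.72 to 1.60 in wildtype cells. Of the neuronal genes 3 of 5 fell, with array medians of -1.49 to 0.21 in mutant cells and -0.34 to 2.35 in wildtype cells. In addition, 1 of 3 glial genes and 1 of 3 mesodermal genes fell, and none of 4 hemocyte, 3 gut and 4 epidermal genes passed the test (limma, with 0, 1 and 2 of them at an unadjusted p below 0.05). Wildtype replicates 4 to 6 stood apart from wildtype replicates 1 to 3 in several markers, so that dye orientation and cell composition cannot be told apart in that group. The neuronal genes ChAT, VAChT and nSyb had 2.35 to 4.78, 1.77 to 2.02 and 1.17 to 3.10 on replicates 4 to 6, against 1.02 to 1.68, -2.25 to 0.07 and -0.39 to -0.28 on replicates 1 to 3. The neuroblast gene mira had -2.35 to -0.70 against -0.42 to 0.46, and dpn, ase, insc and klu were also lower on replicates 4 to 6. Not every marker separated. The neuronal gene elav had 1.83 to 3.42 on replicates 4 to 6 against 1.85 to 3.32 on replicates 1 to 3. The neuronal gene fne had 2.15 to 2.37 against -0.58 to 2.20, and the neuroblast gene wor had 1.32 to 1.77 against 1.53 to 3.10. The part of cell composition in the results below was not tested, and in such samples fewer cells of a type and less RNA per cell cannot be told apart. The called genes and the family's median are therefore also given within each dye orientation.

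The mitochondrial ribosomal protein genes were measured on nearly every array. An exact 0, taken as a missing ratio, occurred in 3 of 408 mutant values (0.735%) and in 21 of 408 wildtype values (5.15%), against 29.6% and 33.6% over all probes. A ratio was present on all 12 arrays for 57 genes. The test needed at least 4 of 6 ratios in each group, which 64 genes met. A ratio compares one probe between RNAs, so ratios of different genes are not levels that can be ranked against each other as amounts of RNA.

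The 4 genes that could not be tested were mRpL16, mRpL36, mRpL42 and mRpS23, and each lacked ratios on more wildtype than mutant arrays. The probe of mRpL16, a protein of the large subunit's core, had 5 mutant ratios of 1.25 to 1.58 and 3 wildtype ratios of 1.23 to 3.60. The probe of mRpS23 had 6 mutant ratios of -0.95 to 0.85 and only 2 wildtype ratios, 0.26 and 1.01. The probe of mRpL36 had mutant ratios of 0.32 to 0.91 on 5 arrays and wildtype ratios of 0.06 to 1.80 on 3. No difference is given for these genes, nor for mRpL42, whose ratios ran from 0.87 to 4.91 on 3 mutant arrays and were 3.14 and 3.40 on 2 wildtype arrays.

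On single arrays the family sat below the other genes. The median over its genes was -0.69, -0.63, -0.59, -0.63, -0.09 and -0.35 on mutant replicates 1 to 6, and -0.08, 0.15, -0.69, -0.22, -0.02 and -0.05 on wildtype replicates 1 to 6. Mutant medians were mostly the lower ones, but the groups overlapped, because mutant replicate 5 was high and wildtype replicate 3 was as low as the lowest mutant array. On each of the 12 arrays the family's median was below the median of all ratios on that array, which ran from -0.12 to 0.20 in mutant cells and from 0.04 to 0.51 in wildtype cells.

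**Figure D1:**
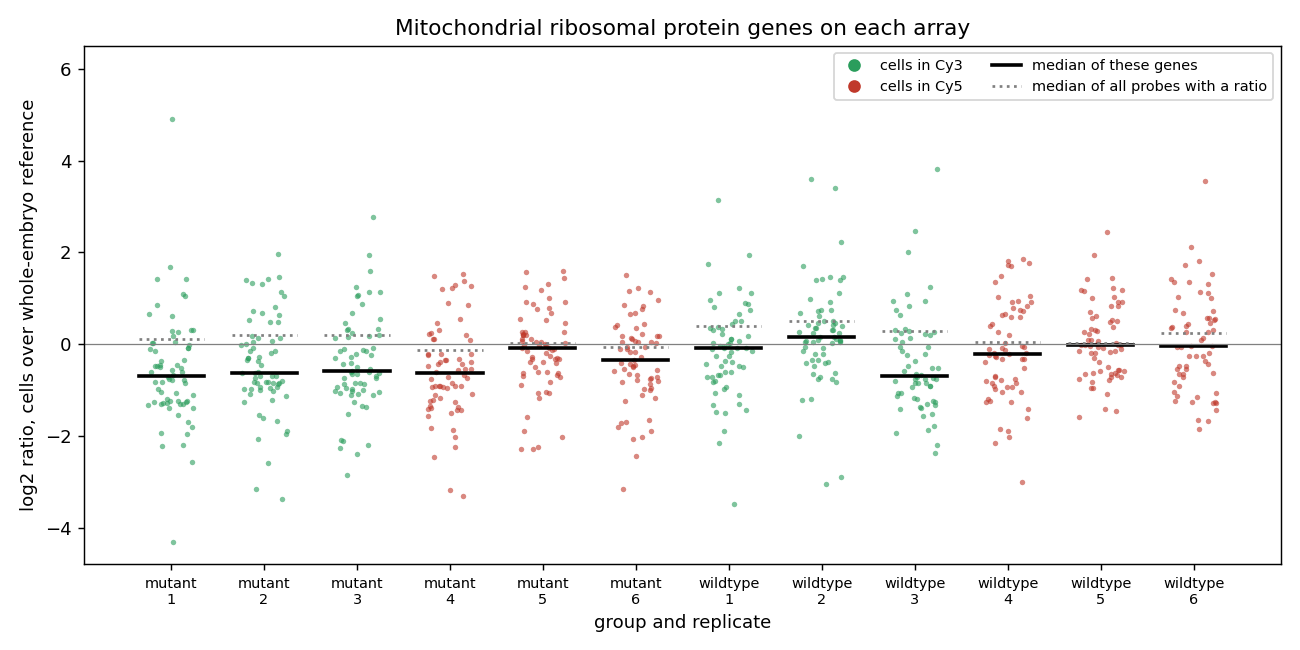
Log2 ratios of cells over the whole-embryo reference (vertical axis) for the mitochondrial ribosomal protein genes on each of the 12 arrays (horizontal axis), with each point 1 gene, green for cells in Cy3 and red for cells in Cy5. Black bars, the family's medians, run from -0.69 to -0.09 in mutant cells and from -0.69 to 0.15 in wildtype cells, and each lies below the dotted median of all ratios of its array.

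Against the whole embryo, the family split into genes with higher and genes with lower ratios, and lower ones were more frequent. In mutant cells 37 of 64 genes were lower than in the reference, 11 were higher and 16 did not pass the test (limma, adjusted p below 0.05). Over all 8165 rows tested, 35.6% were lower and 35.3% were higher. In wildtype cells 25 of the 64 were lower, 17 were higher and 22 did not pass, while over all rows 28.5% were lower and 37.8% were higher. The median ratio of the family was -0.52 in mutant cells and -0.23 in wildtype cells, against -0.02 and 0.17 for all rows.

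The mutant and wildtype ratios share the reference, so they are given side by side and not as independent results. The genes mRpS6 and mRpS18B were called lower than the reference in mutant cells, at -0.92 and -0.42 (limma adjusted p = 0.000429 and 0.0254), and higher in wildtype cells, at 0.82 and 0.78 (limma adjusted p = 0.00105 and 0.000708). On every array with a ratio, 10 genes were above 0 and 17 were below 0, and the other 37 lay on both sides.

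Of the 5 genes with the highest mean ratio 4 are named for the large subunit, as are 40 of the 64 tested (62.5%). The probe of mRpL2, whose bacterial counterpart lies beside the site of peptide bond formation, had ratios of 1.10, 1.22 and 1.60 (lowest, median, highest) in mutant cells and 0.80, 1.86 and 2.24 in wildtype cells. The probe of mRpL22, whose counterpart lines the tunnel through which the new chain leaves, had 1.05, 1.31 and 1.51 in mutant cells and 0.94, 1.28 and 1.81 in wildtype cells. The probe of mRpL1, counterpart of the protein of the mobile stalk at the exit side of the bacterial ribosome, had 0.62, 1.27 and 1.97 in mutant cells and 1.10, 1.39 and 1.86 in wildtype cells. All 3 genes were above the reference on every array, and mutant and wildtype values overlapped for each. The ratios of mRpL3, a core protein of the large subunit, were more scattered, with 0.06, 1.05 and 2.77 in mutant cells and 0.26, 2.09 and 3.56 in wildtype cells. The gene mRpS30 is named for the small subunit, though its mammalian counterpart sits in the large one. It had 0.10, 1.12 and 1.95 in mutant cells and 1.05, 1.45 and 3.82 in wildtype cells. Neither mRpL3 nor mRpS30 was below 0 on any array.

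Of the 5 genes with the lowest mean ratio 4 are named for the large subunit as well. The probe of mRpL20, whose bacterial counterpart acts early in assembly of the large subunit, had -4.32, -3.23 and -1.90 in mutant cells and -3.47, -2.27 and -0.95 in wildtype cells. The probe of mRpL33 had -3.17, -2.37 and -1.94 in mutant cells and -2.00, -1.60 and -1.41 in wildtype cells. The probe of mRpL10, counterpart of the base of the bacterial stalk that binds translation factors, had -2.57, -2.10 and -1.35 in mutant cells and -1.85, -1.24 and -1.09 on 4 wildtype arrays. For these 3 genes no array reached the level of the reference, and the groups overlapped. The probe of mRpL32, whose counterpart in yeast and mouse is cut to its mature form by a protease of the inner membrane, had -2.45, -2.13 and -1.60 in mutant cells and -1.93, -1.27 and -0.56 in wildtype cells. The probe of mRpS5, whose bacterial counterpart affects the accuracy of decoding, had -2.59, -2.11 and -1.40 in mutant cells and -3.05, -2.17 and -0.67 in wildtype cells. Both stayed below the reference on all 12 arrays, and for mRpS5 the medians of the groups lay close together.

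**Figure D2:**
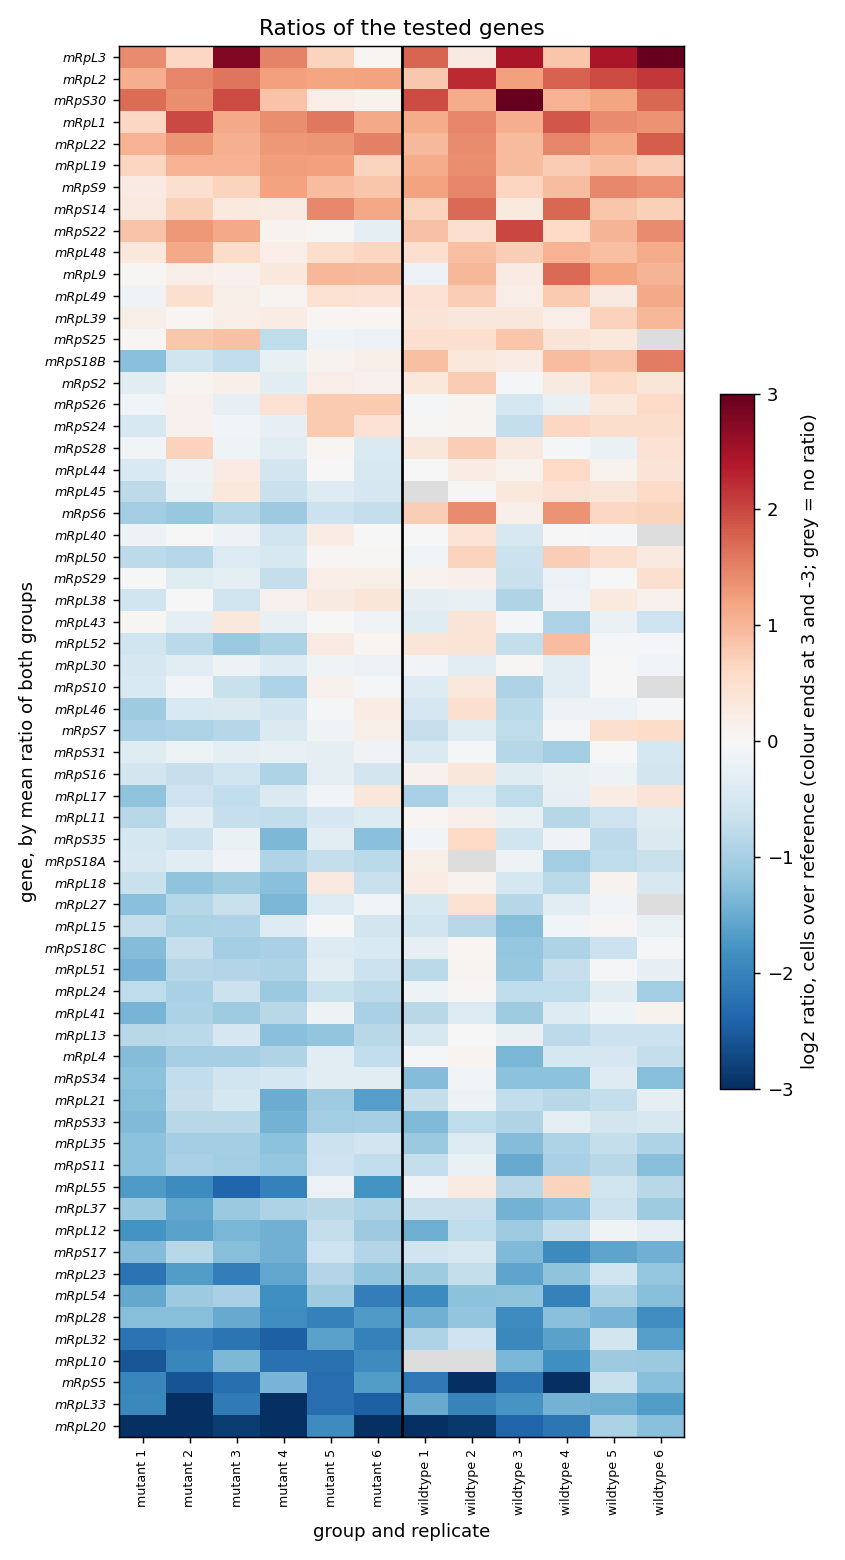
Log2 ratio of cells over reference for each of the 64 tested genes (rows, ordered by the mean of both groups) on each array (columns, mutant replicates left of the line and wildtype replicates right of it), red above and blue below the reference, grey where no ratio was present. The 10 genes above 0 on every array lie near the top. The 17 below 0 on every array lie towards the bottom, except for mRpS31 near the middle. The row of mRpS6 is blue left of the line and red right of it. The row of mRpS18B is blue on mutant replicates 1 to 4 and red on mutant replicates 5 and 6 and right of the line.

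**Figure D3:**
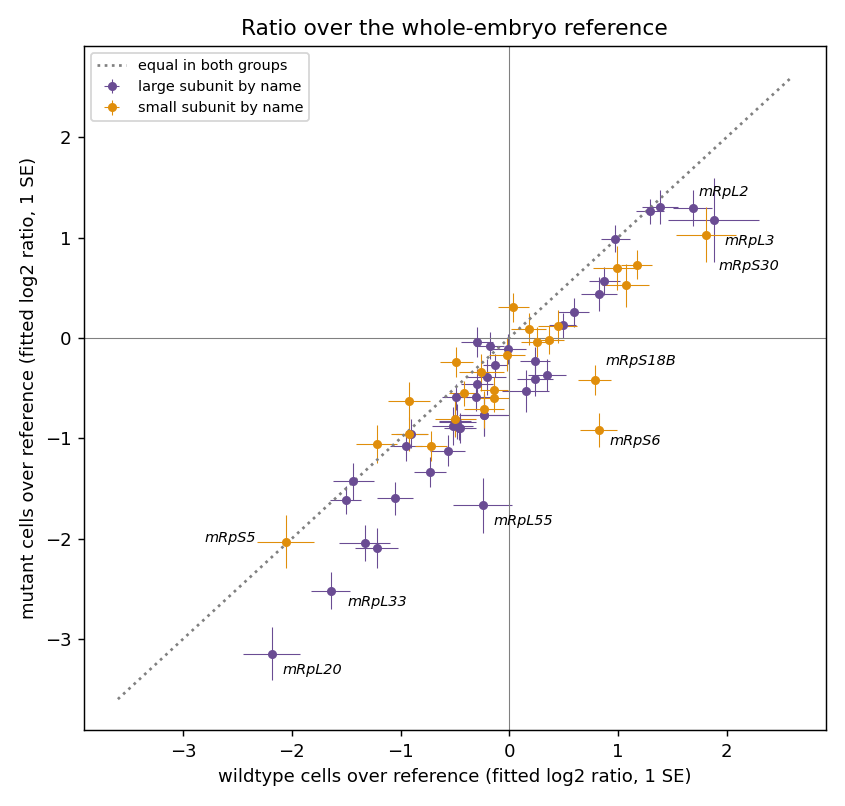
Fitted log2 ratio over the reference in mutant cells (vertical axis) against that in wildtype cells (horizontal axis), 1 point per tested gene with bars of 1 SE, purple for genes named for the large and orange for genes named for the small subunit. The dotted line marks equal ratios. For 8 genes the fitted ratio is below 0 in mutant cells and above 0 in wildtype cells, and 2 of them, mRpS6 and mRpS18B, passed the test on both sides.

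Between mutant and wildtype cells, 2 of the 64 genes fell, mRpS6 and mRpS18B, and none rose (limma with group and dye, adjusted p below 0.05). Over all rows tested, 3.37% were lower and 1.58% higher in the mutant, so the 3.12% of the family that fell is near the background. The other 62 genes did not pass, with adjusted p from 0.0574 to 0.995. Unadjusted, 17 genes (26.6%) had p below 0.05, near the 25.9% of all rows with such a p in either direction. All 17 were lower in the mutant, and over all rows 16.2% had such a p and were lower. Of the 15 among them that did not pass, 13 are named for the large subunit, 10 lie on chromosome 3, and the differences run from -1.42 to -0.44.

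The protein of mRpS6 belongs to the small subunit and has a bacterial counterpart in the platform of that subunit. Its ratios were -1.13, -0.96 and -0.64 (lowest, median, highest) in mutant cells and 0.14, 0.71 and 1.42 in wildtype cells. Every mutant array was below the reference and every wildtype array above it, so the groups did not overlap. The difference was -1.74 (SE 0.24, limma adjusted p = 0.00491), or 3.33-fold lower in mutant cells. Within the Cy3 arrays it was -1.78 (limma adjusted p = 0.188, where only 2 of all rows passed) and within the Cy5 arrays -1.70 (limma adjusted p = 0.0343). The gene lies on 3L, on the chromosome that differed between the groups, and the reservation about the balancer applies to it.

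The gene mRpS18B is one of 3 fly genes named for the bacterial protein S18. Its ratios were -1.25, -0.41 and 0.18 in mutant cells and 0.23, 0.86 and 1.54 in wildtype cells. The groups did not overlap, although the highest mutant value came close to the lowest wildtype value. The difference was -1.21 (SE 0.21, limma adjusted p = 0.0143), or 2.31-fold lower in mutant cells. The gene lies on 2L and not on chromosome 3, but loss of prospero and the balancer cannot be told apart for it either. The difference was -1.34 within the Cy3 arrays (limma adjusted p = 0.207) and -1.07 within the Cy5 arrays (limma adjusted p = 0.0957), so neither orientation alone passed. Without the dye term the adjusted p was 0.0583 in limma.

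These 2 genes were also the only ones of the 64 whose mutant and wildtype values did not overlap, both with mutant lower. Over all rows, 2.52% had every mutant value below every wildtype value and 0.955% had every mutant value above.

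The other genes named for S18 did not pass the test. In mammals the product of the S18A gene sits in the large subunit and those of S18B and S18C in the small one. The ratios of mRpS18A were -0.90, -0.59 and -0.10 in mutant cells and -1.04, -0.66 and 0.18 on 5 wildtype arrays. Those of mRpS18C were -1.31, -0.82 and -0.39 in mutant cells and -1.17, -0.44 and 0.06 in wildtype cells. Both sets overlapped widely, with differences of -0.14 for mRpS18A (SE 0.18, limma adjusted p = 0.681) and -0.31 for mRpS18C (SE 0.26, limma adjusted p = 0.501). Whether mRpS18B differed from its paralogs in its response was not tested.

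**Figure D4:**
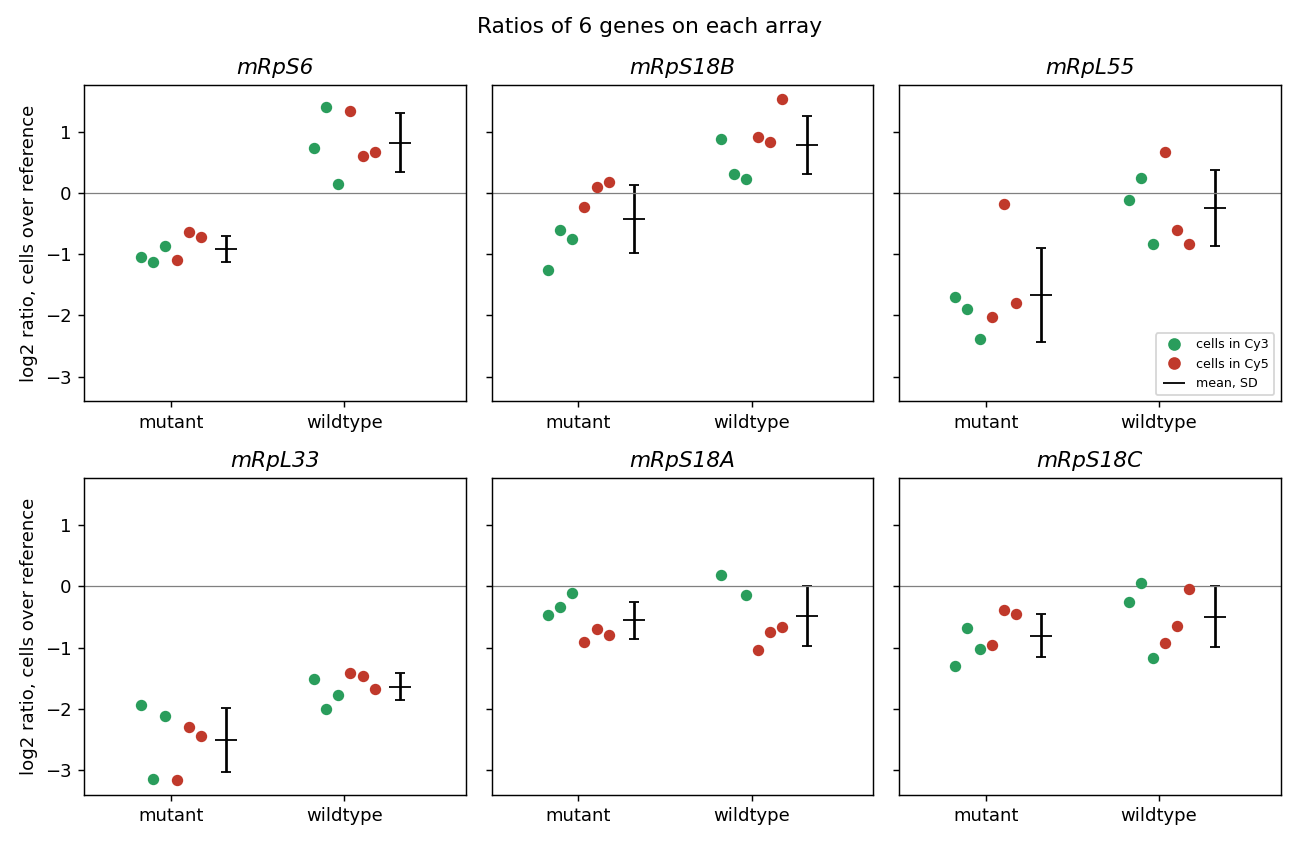
Log2 ratios of cells over reference (vertical axis) for 6 genes on each array, mutant left and wildtype right in each panel, green for cells in Cy3 and red for cells in Cy5, with the mean and SD of each group beside the points. Mutant and wildtype points are separate for mRpS6 and mRpS18B, mutant replicate 5 of mRpL55 stands at -0.18 above its group, and the points of mRpS18A and mRpS18C overlap.

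The next genes by p were all named for the large subunit and stayed short of the threshold. The probe of mRpL55, a protein without a bacterial counterpart, had -2.39, -1.85 and -0.18 in mutant cells and -0.84, -0.35 and 0.67 in wildtype cells. Mutant replicate 5 alone reached into the wildtype values. The difference was -1.42 (SE 0.39, limma adjusted p = 0.0574), and with each array left out in turn its limma adjusted p ran from 0.0229 to 0.131. The lowest came without mutant replicate 5 (difference -1.72), the array that overlapped, and the other 11 did not pass. The probe of mRpL45, whose mammalian counterpart helps to hold the ribosome at the inner membrane, had -0.77, -0.45 and 0.32 in mutant cells and 0.04, 0.36 and 0.57 on 5 wildtype arrays. Only mutant replicate 3 lay among the wildtype values. The difference was -0.72 (SE 0.23, limma adjusted p = 0.0905), and with each array left out in turn its limma adjusted p ran from 0.0444 to 0.199. The lowest came without that same array (difference -0.85), and the other 11 did not pass.

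For mRpL33, mRpL32 and mRpL20, which had among the lowest ratios over the reference, the differences were -0.88, -0.87 and -0.96, with limma adjusted p of 0.0648, 0.0846 and 0.131. For mRpL12, counterpart of the bacterial stalk protein, the ratios were -1.80, -1.40 and -0.72 in mutant cells and -1.48, -0.74 and -0.11 in wildtype cells, a difference of -0.61 (limma adjusted p = 0.0962). For mRpL50 and mRpL13 the differences were -0.65 and -0.44 (limma adjusted p = 0.114 and 0.125). In each of these genes the mutant median was the lower one and the groups overlapped.

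A positive difference was found in 9 of the 64 genes, and none of these passed the test. The largest were those of mRpS34, mRpS26, mRpL43, mRpS31 and mRpS17. For mRpS34, mRpS26 and mRpS31, proteins of the small subunit without a bacterial counterpart, the differences were 0.29 (SE 0.27), 0.27 (SE 0.20) and 0.25 (SE 0.21). For mRpL43 the difference was 0.25 (SE 0.21) and for mRpS17 it was 0.17 (SE 0.26). The limma adjusted p-values of these 5 genes ran from 0.432 to 0.732, and their mutant and wildtype values overlapped. With arrays centred on their medians the difference of mRpS26 was 0.48 (SE 0.18, limma adjusted p = 0.124).

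**Figure D5:**
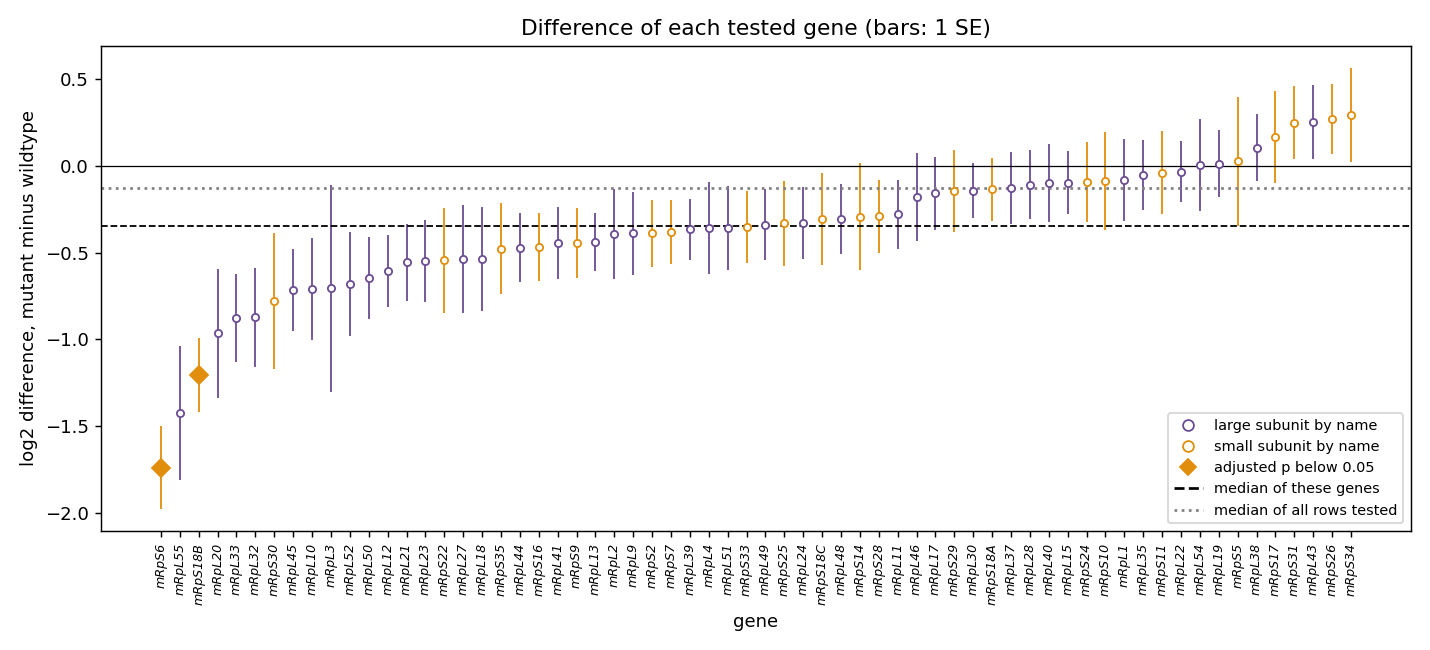
Log2 difference of mutant minus wildtype (vertical axis) for each tested gene in order of size (horizontal axis), with bars of 1 SE, purple for genes named for the large and orange for genes named for the small subunit. Filled diamonds are mRpS6 at -1.74 and mRpS18B at -1.21, which passed the test, and 55 of 64 genes lie below 0.

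Most single genes did not pass the test, and the family as a whole lay below 0. The median difference was -0.35, against -0.13 over all rows, and 55 of 64 genes (85.9%) were below 0, against 59.3% of all rows. The middle part of the family, between the quartiles, ran from -0.54 to -0.10. These counts describe the family and carry no test, since its genes were measured on the same arrays and move together.

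The size of that shift depended on how arrays were scaled. With each array centred on its median, the family's median difference was -0.15 and that of all rows 0.08, and 40 of 64 genes (62.5%) were below 0, against 44.8% of all rows. With quantile normalization the medians were -0.12 for the family and 0.09 for all rows. The family lay below all rows under each scaling, and 2 genes fell and none rose under both of these scalings too. Over all rows the balance changed, with 129 higher and 275 lower as deposited, and 423 higher and 221 lower after centring.

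Subunits and chromosomes are described here without a test of the difference between them. The median difference was -0.36 for the 40 tested genes named for the large subunit, of which 36 were below 0. None of these passed (limma, 13 at an unadjusted p below 0.05). It was -0.30 for the 24 genes named for the small subunit, of which 19 were below 0. Of these, 2 passed (limma, 4 at an unadjusted p below 0.05). The median difference was -0.31 for the 35 tested genes on chromosome 3, where 1 (2.86%) passed as lower. It was -0.36 for the 29 on other chromosomes, where 1 (3.45%) passed as lower. Over all rows the medians were -0.13 on chromosome 3 and -0.12 elsewhere. Of all rows on chromosome 3, 3.72% passed as lower and 2.14% as higher, against 3.10% and 1.12% on other chromosomes. With arrays centred, 54.3% of the family's genes on chromosome 3 and 72.4% of those on other chromosomes were below 0. Over all rows these shares were 45.5% on chromosome 3 and 44.6% on other chromosomes.

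Within the dye orientations the median difference was -0.31 over 63 genes on the Cy3 arrays, where 49 were below 0, and -0.29 over 64 genes on the Cy5 arrays, where 51 were below 0. Over all rows the median was -0.13 on the Cy3 arrays, with 4570 of 7729 below 0. On the Cy5 arrays it was -0.06, with 4275 of 8048 below 0. None of the 64 genes passed a test of whether the group difference itself differed between orientations (limma, 1 gene with an unadjusted p below 0.05), against 0.416% of all rows. The dye effect passed in 5 genes, against 11.0% of all rows. Ratios were higher with cells in Cy5 for mRpL15, mRpL17, mRpS7 and mRpS18B, by 0.68, 0.82, 0.85 and 0.75, and they fell by 0.65 for mRpS18A.

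The genes of the family had smaller errors than all rows, and their deviations on the same array were correlated. The median SE of the difference was 0.23 in the family and 0.32 over all rows. After group and dye means were removed, the median correlation of the 1596 pairs among the 57 genes with 12 ratios was 0.34, and 78.3% of pairs were positive. Over the 6361 rows with all ratios the median was 0.0037. With arrays centred first, the medians were 0.17 and 0.018. These correlations are across 12 arrays that share the reference and are given as a description.

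Genes of 2 other lists gave a comparison. Of 36 cytosolic ribosomal protein genes 33 were tested, and none passed between mutant and wildtype cells (limma, 6 of them, or 18.2%, with an unadjusted p below 0.05, all lower), with a median difference of -0.21. Over the reference, 10 of them were higher and 8 lower in mutant cells, and 17 were higher and 4 lower in wildtype cells. Of these 33 cytosolic genes, 75.8% had a difference below 0. The other list held 38 mitochondrial genes outside the family, mostly of gene expression. It also took in bonsai, a gene of the mitochondrial ribosome with another name, and Hsp60A, Phb2, Lon and clu. Of the 38 genes 33 were tested, and none passed (limma), with a median difference of -0.26. An unadjusted p below 0.05 was found in 9 of them, or 27.3%, 7 lower and 2 higher (limma). Like the family, these genes were more often lower than higher over the reference. In mutant cells 15 were lower and 6 higher, and in wildtype cells 12 were lower and 8 higher. A difference below 0 between mutant and wildtype cells was found in 72.7% of the 33. The smallest p-values there belonged to mEFTu1, an elongation factor, at -0.79, Hsp60A, a folding chaperone of the matrix, at -1.46, Phb2, a prohibitin, at -0.91, and mTerf5, of the mTERF family, at 0.69, with limma adjusted p from 0.0574 to 0.0713.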

How the data were processed

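RNA ratios of 12 spotted 2-colour arrays were used. The deposited values are log2 ratios, 1 per probe and array, for 14569 probes. The base was read from the values: signal steps came out even in base 2 on 7 of 11 arrays (mean miss under 0.1 of a step) and on 0 arrays in base e or 10. All columns had a deposited median of 0. For the scanner, background correction, normalization and ratio direction the sources used here give nothing, and signal over background is unknown.

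Exact 0 and values beyond 11 in size (signal in 1 channel) were set to missing, which left 8421 to 10030 ratios per array. Probes were averaged per gene through the platform annotation, where 12657 probes had 1 symbol, 96 several and 1816 none. Symbols were looked up in RefSeq. Rows with at least 4 of 6 ratios in each group were fitted with limma 3.58.1 in R 4.3.3 (lmFit and eBayes, group and dye of the cells), with Benjamini-Hochberg adjustment over all 8165 rows and a threshold of 0.05. The number of arrays limits the precision. The code was tested on simulated data.

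The text names prospero, the members past the threshold, the 10 of smallest p, the 5 largest differences each way, the 5 highest and 5 lowest ratios over reference, the S18 paralogs, and up to 4 other mitochondrial genes. The 4 untested members, the 5 with a dye effect and the neural markers were named after their values were seen. The members and lists were chosen with earlier results of these data known. Alternatives covered dye, block, scaling, missing values, filters, probes, the variance model and each array left out. Promoter motifs and sequences were not used here.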

Additional observations from a re-analysis of the deposited data

Results flagged for a closer look

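Among 52 sets of replicates examined, 2 held a sample far from the others of its group, and chance alone flags about 1 in 20 such sets. For mRpL55, mutant replicate 5 had a log2 ratio of -0.18, while the other mutant arrays lay between -2.39 and -1.70. For mRpS30, wildtype replicate 3 had 3.82, while the other wildtype arrays lay between 1.05 and 1.95.

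For mRpL42, which had too few ratios to be tested, 2 mutant arrays showed signal of the cells only, with no value for the reference, and 0 wildtype arrays did. For mRpL36, also untested, 1 wildtype array and 0 mutant arrays showed such a signal.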

How the results depend on the processing

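For the difference between mutant and wildtype cells, 2 mitochondrial ribosomal protein genes passed the test. The count was 0 on the Cy3 arrays alone, 1 on the Cy5 arrays alone, 1 without the dye term, 1 with the replicate number as a block, 3 with a ratio required on all 12 arrays, and 2 to 3 when single arrays were left out (3 without mutant replicate 3 or 5). Under that block mRpS6 passed and mRpS18B had a limma adjusted p of 0.0518. Mutant and wildtype samples that shared a number correlated by 0.062 to 0.262 after the means of each group and dye were removed. Each mutant sample was compared only with the wildtype samples of the same dye, and among these it correlated best with its own number. That is a hint from the data and not from the design. For the other mitochondrial genes the count was 0, and it was 1 with ratios on all 12 arrays, with centred arrays, with quantile normalization, with a trended and robust variance, and on the Cy5 arrays alone. It ran from 0 to 2 with single arrays left out, with 2 without wildtype replicate 1 and 1 without mutant replicate 5, wildtype replicate 3 or wildtype replicate 4. For the cytosolic ribosomal protein genes it was 1 on the Cy5 arrays alone and 1 with a single probe per gene, against 0. The causes were not tested. With single arrays left out the median difference ran from -0.41 to -0.26. Named members gave 568 comparisons with an alternative, of which 5 lost and 3 gained the call and 0 turned the sign of a called value. In 4 comparisons an uncalled value crossed 0 and moved by at least its SE, for mRpL22 with centred arrays (0.17), for mRpS17 (-0.34) and mRpL3 (0.12) on the Cy3 arrays, and for mRpS18A with quantile normalization (0.051). The other 556 kept their side of the threshold, and where an uncalled value crossed 0 it moved by less than its SE.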
